A study of Mus musculus with 12 samples.

Results

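The 9 genes described here carry amino acids into the cell or make asparagine from glutamine, and they were found by name among the 32288 entries of the deposited count table. They are *Slc7a5* and *Slc3a2* (the light and heavy chains of the LAT1-CD98 carrier), *Slc1a5* and *Slc1a4* (ASCT2 and ASCT1), *Slc38a1* and *Slc38a2* (SNAT1 and SNAT2), *Slc7a1* (CAT1), *Slc7a11* (xCT) and *Asns* (asparagine synthetase). Bulk RNA-seq was done on mGFP+ cells sorted from the metaphysis of femurs and tibias, the region below the growth plate, in 4 groups of mice that all carried *Osx-CreERT2* and the *mTmG* reporter and received tamoxifen, so that Cre activity under the *Osx* promoter marks osteoblast lineage cells and their progeny. Juvenile *Osx*+ osteoblasts (3 weeks of age, 4 libraries) and adult *Osx*+ osteoblasts (8 weeks, 4 libraries) each came from pools of 2 male mice, and their diaphysis was trimmed at about 2 mm. The *c-Myc* group (2 libraries) also carried *LSL-tTA* and *Col1a1::TetO–c-Myc*, which together let Cre switch on the *c-Myc* transgene, and the *c-Myc* + *R172H* group (2 libraries) had *Trp53-LSL-R172H* as well, a dominant-negative p53 allele. Mice of these 2 groups were of both sexes, were dissected at a stated age of 5 weeks (the library titles say 3 weeks) and were trimmed at about 5 mm. Their cells were taken 7 days after 2 daily tamoxifen doses, and those of juvenile and adult mice 2 days after the last of 3 daily doses. Tamoxifen for juvenile induction was given at 3 weeks of age, which is the age in the titles of the induced libraries. Cells taken 7 days later would come from mice younger than 5 weeks, so the age of the induced mice at dissection is unsettled. To keep the transgene off, mice with it or pregnant females drank doxycycline or tetracycline until a set time before analysis. The paper names neither drug for the juvenile and adult groups. Age at dissection, trimming, the tamoxifen schedule, these drugs and pooling cannot be told apart from *c-Myc* induction in any comparison with the juvenile libraries.

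Amino acid carriers of the plasma membrane differ in what they move and in what drives them. Sodium-coupled carriers of the SLC1 and SLC38 families concentrate small neutral amino acids such as glutamine, alanine and serine in the cell, and exchangers of the SLC7 family then trade these for leucine and other large neutral amino acids, which activate mTORC1. When amino acids run short, uncharged tRNA activates the kinase GCN2, translation of the transcription factor ATF4 goes up, and ATF4 raises carriers and *Asns* through C/EBP-ATF response elements (CAREs). MYC is known to raise glutamine carriers in many tumour cells, and osteoblasts use glutamine and asparagine when they make their collagen-rich matrix.

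Total counts ranged from 9066154 to 15684412 per library, and levels are given as CPM, the usual scaling of counts to library size, with the size taken as a library's total times its TMM factor. *Myc* was at 39.8 to 52.2 CPM in juvenile and 44.7 to 51.2 CPM in adult libraries, and at 624 to 747 CPM in the 4 libraries of the induced groups (log2 fold change of *c-Myc* over juvenile 3.78 ± 0.11, SE), while the level of *Trp53* does not check a point mutation. All 12 osteoblast markers were above 3 counts in every library. Their summed level was 596150.0 to 874035 CPM in juvenile, 363747 to 649109 CPM in adult, 104211 to 137549.8 CPM in *c-Myc* and 58984 to 60913 CPM in *c-Myc* + *R172H* libraries. This sum is mostly *Col1a1* and *Col1a2*, so it says little of the other markers. They took 33.4% and 15.2% of counts in juvenile replicate 1, and 5.61% and 3.10% in *c-Myc* + *R172H* replicate 1. The summed level of 16 chondrocyte markers, none of them at 0 in any group, was 18803 to 36959 CPM in juvenile, 44866 to 142614 CPM in adult, 1888 to 2128 CPM in *c-Myc* and 881 to 1048 CPM in *c-Myc* + *R172H* libraries. Summed marrow stromal markers (8 genes) were at 604 to 799.5 CPM in juvenile, 579.7 to 922 CPM in adult, 207 to 297 CPM in *c-Myc* and 199 to 211 CPM in *c-Myc* + *R172H* libraries, and summed osteoclast markers (8 genes) at 203 to 332, 222 to 411, 83.9 to 105 and 52.2 to 52.3 CPM, with *Ocstamp*, *Dcstamp* and *Calcr* at 0 in every library. All 4 sums were lower in the induced libraries than in the juvenile ones, and their part in the results was not tested. Summed markers of blood cells (15 genes) and of endothelium (8 genes) were at most 13.5 and 8.67 CPM in any library, but were higher in the induced ones. Blood cell markers were at 1.28 to 5.70 CPM in juvenile, 7.59 to 12.3 in adult, 12.1 to 13.5 in *c-Myc* and 8.33 to 9.56 in *c-Myc* + *R172H* libraries. Endothelial markers were at 0 to 1.03, 0 to 3.30, 6.66 to 8.67 and 6.50 to 7.94 CPM in the same order. The part of these 2 sums in the results was not tested either. In bulk RNA, fewer cells of a type and less RNA per cell cannot be told apart. *Xist* was at 233 and 211 CPM in replicate 2 of both induced groups and at or below 1.24 CPM in all other libraries. *Col1a1*, *Col1a2* and *Gm26917* together took 57.1 to 65.3% of counts in juvenile and 35.2 to 46.1% in induced libraries, though *Gm26917* alone went from 7.19 to 8.46% up to 26.5 to 29.4%, and scaling by library totals alone moved the median log2 fold change of all genes to 0.87 for *c-Myc* over juvenile, 1.11 for *c-Myc* + *R172H* over juvenile, 0.21 for *c-Myc* + *R172H* over *c-Myc* and -0.24 for juvenile over adult. The libraries of each induced group thus differed in *Xist* and are not repeat runs of the same RNA, though no source says how many animals each holds.

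Most of these genes were higher in the *c-Myc* libraries than in the juvenile ones, among them the LAT1 light chain, the glutamine carriers ASCT2 and SNAT1 and asparagine synthetase. By edgeR's quasi-likelihood test with Benjamini-Hochberg adjustment at 0.05, 6 of the 9 genes were called higher in *c-Myc* than in juvenile osteoblasts (*Slc7a5*, *Slc1a5*, *Slc38a1*, *Slc7a1*, *Slc7a11* and *Asns*), where 28.4% of the 12588 genes tested were called higher. *Slc1a4* and *Slc38a2* were called lower, where 25% of all genes tested were, and *Slc3a2* was not called. For each of these 8 genes, both *c-Myc* libraries lay on the same side of all juvenile ones. The genes were taken by their calls, which favours such separation, and the share of all genes without overlap was not counted. Replicate 1 had *Xist* near 0 like the juvenile pools of male mice, and the part of sex was not tested. The median log2 fold change of the 9 genes was 1.89, against 0.04 for all genes tested. The 9 genes were chosen with earlier results of these data known, so their comparison with all genes is no independent support. Over all genes the calls were 3577 higher and 3149 lower, and 6803 higher and 1116 lower under library totals.

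**Figure D1:**
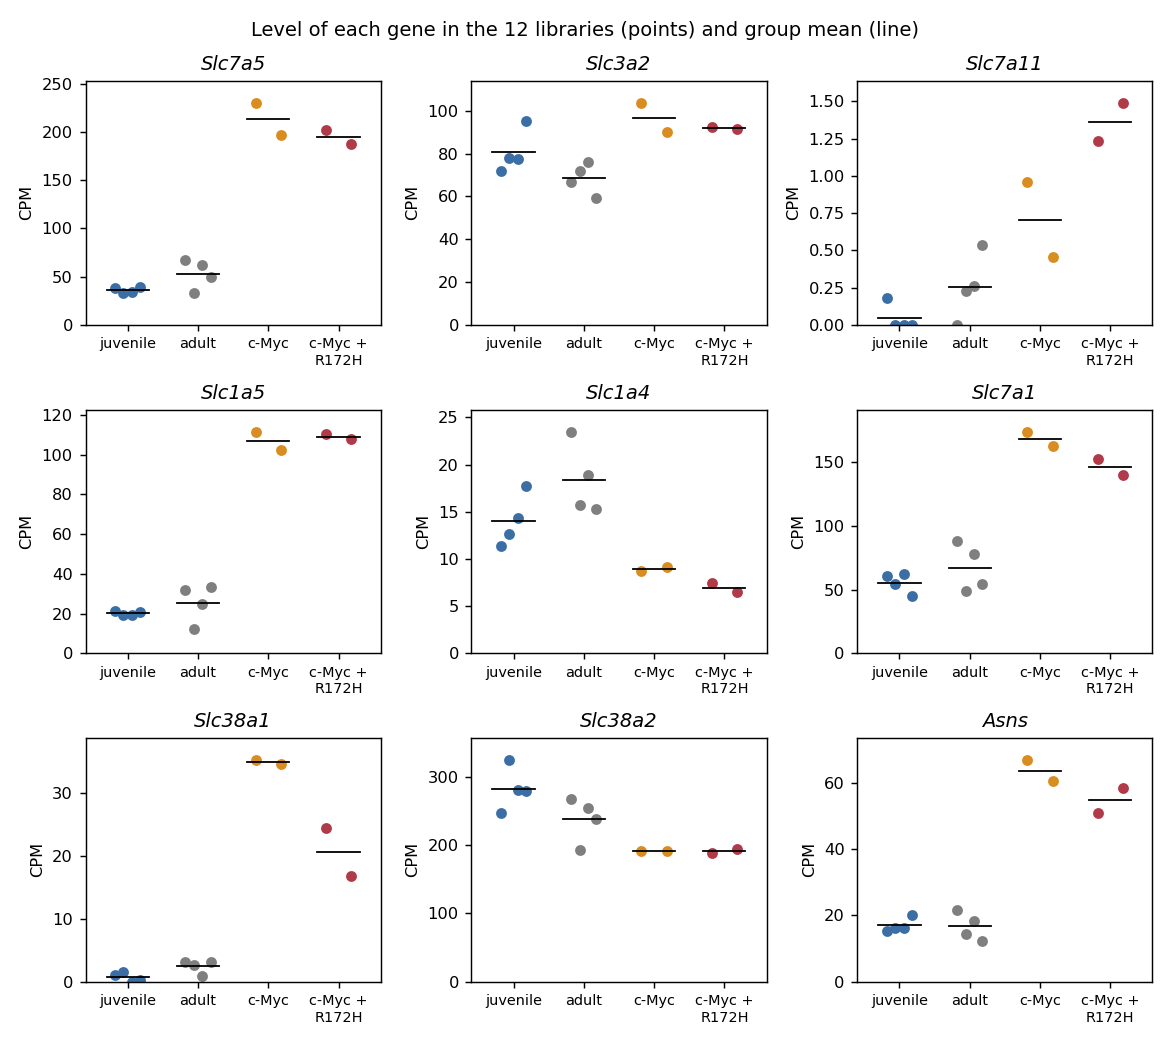
Level in CPM (linear axis from 0, its range set for each gene) of the 9 genes in each library (points) by group, with the group mean as a line, for 4 juvenile, 4 adult, 2 *c-Myc* and 2 *c-Myc* + *R172H* libraries. The 4 libraries of the induced groups stand above all 8 others for *Slc7a5*, *Slc1a5*, *Slc7a1*, *Slc38a1* and *Asns*, and below all juvenile libraries for *Slc1a4* and *Slc38a2*. The share of all genes with such separation was not counted.

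*Slc7a5* (ENSMUSG00000040010, chr8:121881150-121907694 in mm10, minus strand) encodes LAT1, which takes up leucine and other large neutral amino acids in exchange for glutamine. It was at 37.8, 32.5, 33.8 and 39.7 CPM in the juvenile libraries, at 67.1, 33.4, 62.2 and 49.3 CPM in the adult libraries, at 230.0 and 197 CPM in the *c-Myc* libraries and at 202 and 188 CPM in the *c-Myc* + *R172H* libraries. The lowest induced library was thus far above the highest of the other 8. The log2 fold change of *c-Myc* over juvenile was 2.55 ± 0.10 (SE; adjusted p = 8.04e-09), a 5.85-fold difference.

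*Slc3a2* (ENSMUSG00000010095, chr19:8706882-8723369, minus strand) encodes the CD98 heavy chain, which brings LAT1 and related light chains to the membrane. Its level was 71.8, 78.1, 77.6 and 95.5 CPM in juvenile, 66.6, 72.0, 76.3 and 59.1 CPM in adult, 104 and 90.2 CPM in *c-Myc* and 92.5 and 91.6 CPM in *c-Myc* + *R172H* libraries. Juvenile replicate 4 lay above 3 of the 4 induced libraries, so the groups overlapped. The log2 fold change of *c-Myc* over juvenile was 0.24 ± 0.12 (95% interval -0.01 to 0.50, adjusted p = 0.0983). It was 0.33 with adjusted p = 0.0128 without juvenile replicate 4, and it was past the threshold also under library totals (1.09) and with a replicate block (0.34).

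The light chains that share this heavy chain did not move alike. The levels of *Slc7a5*, *Slc7a6* (y+LAT2), *Slc7a7* (y+LAT1), *Slc7a8* (LAT2), *Slc7a10* (Asc-1) and *Slc7a11* were divided by each gene's exon length, a comparison chosen after the values were seen and given as a description. *Slc7a5* made up 25.8, 24.4, 29.3 and 29.9% of the light chain sum in the juvenile libraries, 54.0, 26.4, 41.2 and 44.3% in the adult libraries, and 80.8, 80.1, 80.0 and 80.4% in the *c-Myc* and *c-Myc* + *R172H* libraries. *Slc7a8*, a carrier of neutral amino acids of wide range, held 27.9 to 34.9% in juvenile libraries, 8.15 to 21.6% in adult libraries, 0.689 and 0.955% in *c-Myc* libraries and 0.336 and 0.33% in *c-Myc* + *R172H* libraries. So *Slc7a5* stood near an equal share with *Slc7a6* and *Slc7a8* in juvenile osteoblasts and made up most of the sum in the induced ones.

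*Slc7a6* was at 8.09 to 11.6 CPM per kb of exon in juvenile libraries and at 11.2 to 13.1 CPM per kb in the induced ones. The sum of the light chains per kb was 1.33 to 1.94 times that of *Slc3a2* in juvenile libraries, 1.67 to 1.88 times in adult libraries and 2.43 to 2.61 times in the induced ones. The ratio of *Slc7a5* to *Slc3a2* per kb was 0.396 to 0.501 in juvenile, 0.442 to 0.959 in adult, 2.08 and 2.11 in *c-Myc* and 1.95 and 2.08 in *c-Myc* + *R172H* libraries. These ratios are within a library and do not depend on its scaling, but RNA ratios do not give the make-up of the protein complex.

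**Figure D2:**
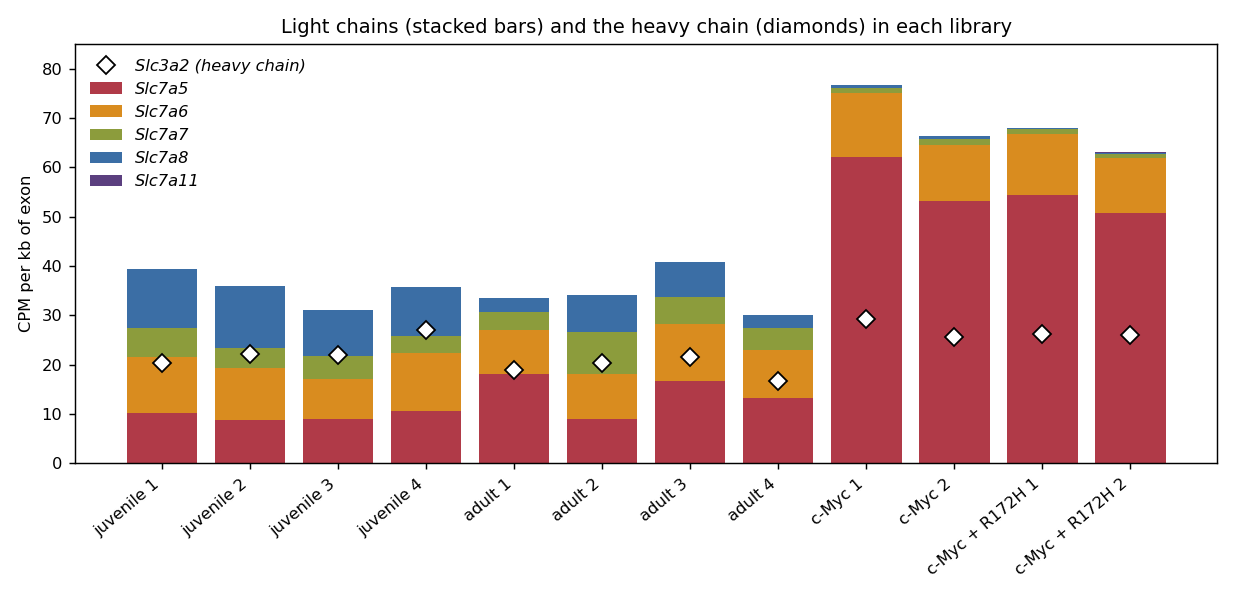
CPM per kb of exon of the light chains *Slc7a5*, *Slc7a6*, *Slc7a7*, *Slc7a8* and *Slc7a11* (stacked bars) and of their heavy chain *Slc3a2* (diamonds) in each of the 12 libraries. *Slc7a10*, at most 0.0235 CPM per kb, is not drawn; the *Slc7a5* bar reaches 50.7 to 62.0 in the 4 induced libraries and the *Slc7a8* bar all but vanishes there, while the diamonds lie between 16.8 and 29.4 throughout.

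*Slc1a5* (ENSMUSG00000001918, chr7:16781340-16798274, plus strand) encodes ASCT2, a sodium-dependent exchanger that is a main route of glutamine uptake in proliferating cells. Its level was 21.1, 19.3, 19.3 and 20.6 CPM in juvenile, 32.1, 12.1, 24.8 and 33.2 CPM in adult, 112 and 102 CPM in *c-Myc* and 111 and 108 CPM in *c-Myc* + *R172H* libraries. The juvenile libraries were close together, whereas adult replicate 2 was well below the other adult ones. The log2 fold change of *c-Myc* over juvenile was 2.39 ± 0.10 (adjusted p = 8.51e-09), a 5.24-fold difference.

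*Slc1a4* (ENSMUSG00000020142, chr11:20302180-20332713, minus strand) encodes ASCT1, which exchanges alanine, serine, cysteine and threonine but carries little glutamine. It went the other way, with 11.4, 12.7, 14.3 and 17.8 CPM in juvenile, 23.5, 15.7, 18.9 and 15.2 CPM in adult, 8.76 and 9.18 CPM in *c-Myc* and 7.46 and 6.45 CPM in *c-Myc* + *R172H* libraries. The log2 fold change of *c-Myc* over juvenile was -0.66 ± 0.23 (adjusted p = 0.0271) and that of *c-Myc* + *R172H* over juvenile was -1.0 ± 0.23 (adjusted p = 0.00277). Under library totals these were 0.18 and 0.06, above 0 but below the shift of the median gene. The call in *c-Myc* was lost without either *c-Myc* library (adjusted p = 0.177 without replicate 1 and 0.129 without replicate 2) and without either *c-Myc* + *R172H* library (0.0522 and 0.0513), which enter its fit only through the shared spread. Per kb of exon, *Slc1a5* was 1.09 to 1.74 times *Slc1a4* in juvenile libraries, 0.724 to 2.05 times in adult libraries and 10.5 to 15.7 times in the induced libraries.

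*Slc38a2* (ENSMUSG00000022462, chr15:96687392-96699730, minus strand) encodes SNAT2, a sodium-coupled carrier that is widely expressed and rises when amino acids are scarce. It had the highest level of the 9 genes per kb of exon in juvenile and adult osteoblasts. Its level was 247, 324, 279.8 and 278 CPM in juvenile, 268, 192, 253 and 239 CPM in adult, 192 and 192 CPM in *c-Myc* and 189 and 195 CPM in *c-Myc* + *R172H* libraries. All 4 induced libraries were below the lowest juvenile one, with a log2 fold change of -0.58 ± 0.10 for *c-Myc* over juvenile (adjusted p = 0.000468) and -0.55 ± 0.10 for *c-Myc* + *R172H* over juvenile (adjusted p = 0.000631). Under library totals the same changes were 0.26 and 0.50, the latter with adjusted p = 0.00607, again below the shift of the median gene, so *Slc38a2* fell relative to most genes but its direction turns with the scaling.

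*Slc38a1* (ENSMUSG00000023169, chr15:96571418-96642913, minus strand), the neighbour of *Slc38a2*, encodes SNAT1, which also brings in glutamine with sodium. It was close to the detection limit in juvenile libraries, with 12, 15, 0 and 2 counts, and had 31, 24, 7 and 29 counts in adult libraries. It had 771 and 610 counts in *c-Myc* libraries (35.2 and 34.6 CPM) and 533 and 338 counts in *c-Myc* + *R172H* libraries (24.4 and 16.8 CPM). The ratio of counts per effective library size was 43.2 (95% counting interval 30.0 to 64.8) for *c-Myc* over juvenile, and the fitted log2 fold change was 5.42 ± 0.44 (adjusted p = 6.8e-07), at rank 121 from the highest of the 12588 genes. This was the largest fold of the 9 genes in that comparison, yet per kb of exon *Slc38a1* made up 0 to 0.244% of the sum of *Slc38a1* and *Slc38a2* in juvenile libraries, 0.183 to 0.718% in adult libraries, 8.6 and 8.47% in *c-Myc* libraries and 6.22 and 4.23% in *c-Myc* + *R172H* libraries. *Slc38a2* thus stayed the more abundant of the pair.

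*Slc7a1* (ENSMUSG00000041313, chr5:148327410-148399904, minus strand) encodes CAT1, which carries arginine, lysine and ornithine. Its level was 60.4, 54.3, 62.0 and 44.7 CPM in juvenile, 87.9, 49.0, 78.2 and 54.3 CPM in adult, 174 and 163 CPM in *c-Myc* and 152 and 140.2 CPM in *c-Myc* + *R172H* libraries. The induced libraries were all above the 8 others, with a log2 fold change of 1.58 ± 0.12 for *c-Myc* over juvenile (adjusted p = 3.99e-07).

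*Slc7a11* (ENSMUSG00000027737, chr3:49892526-50443614, minus strand) encodes xCT, which brings in cystine against glutamate and pairs with the CD98 heavy chain. It was near the detection limit in every library, with 2, 0, 0 and 0 counts in juvenile, 0, 2, 2 and 5 in adult, 21 and 8 in *c-Myc* and 27 and 30 in *c-Myc* + *R172H* libraries. The ratio of counts per effective library size to the juvenile group was 13.2 (95% counting interval 3.33 to 114) in *c-Myc* and 24.4 (6.44 to 206) in *c-Myc* + *R172H* libraries, and these intervals cover counting error only. The edgeR call of *c-Myc* over juvenile (adjusted p = 0.0226) was lost without *c-Myc* replicate 1 (adjusted p = 0.197), without *c-Myc* replicate 2 (0.0509), without *c-Myc* + *R172H* replicate 1 (0.0641) or replicate 2 (0.0663) and with a replicate block. That of *c-Myc* + *R172H* over juvenile (adjusted p = 0.00446) was lost only without *c-Myc* + *R172H* replicate 2 (0.0506). Even at its highest, 1.49 CPM, the level was far below that of the other light chains *Slc7a5* and *Slc7a6*.

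*Asns* (ENSMUSG00000029752, chr6:7675169-7693254, minus strand) makes asparagine from aspartate with the amide nitrogen of glutamine. Its level was 15.2, 16.3, 16.3 and 20.1 CPM in juvenile, 21.8, 14.3, 18.2 and 12.4 CPM in adult, 66.9 and 60.6 CPM in *c-Myc* and 51.0 and 58.6 CPM in *c-Myc* + *R172H* libraries. Every induced library was well above every other, with a log2 fold change of 1.89 ± 0.13 for *c-Myc* over juvenile (adjusted p = 2.19e-07), a 3.7-fold difference.

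Promoter sequence was looked up because *Asns*, *Slc7a11* and other carriers of this set are textbook targets of ATF4. RefSeq windows (build GRCm38.p6) of 250 bases before and 50 bases after a gene's start were at hand for 6 of the 9 genes, with a second window for *Slc7a1*, and none for *Slc7a5*, *Slc1a5* and *Slc38a1*. Letters were searched on both strands for the E-box that MYC binds (CACGTG), the CARE that ATF4 binds (TGATGNAA) and the antioxidant response element that NRF2 binds (TGACNNNGC), which occurred in 7.15%, 3.97% and 12.4% of all 32851 windows. No window of the 6 genes held the E-box letters. The bases before the start in the *Slc3a2* window, chr19:8713898-8714147, lie inside the gene span given above. Sequence before the outermost annotated start of *Slc3a2* was thus not searched. The CARE letters stood in the windows of *Asns*, *Slc7a11* and *Slc1a4*, and the antioxidant element letters in those of *Slc38a2*, *Slc7a1* and *Asns*. The stretches of 30 bases around the CARE matches are shown 5′ to 3′ on the strand of the gene, with the matching letters in capitals, because the same letters occur in genes that were called higher and in a gene that was called lower.
*Asns*, chr6:7693214-7693243, minus strand: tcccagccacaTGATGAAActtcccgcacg
*Slc7a11*, chr3:50443652-50443681, minus strand: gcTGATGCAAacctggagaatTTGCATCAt
*Slc1a4*, chr11:20332699-20332728, minus strand: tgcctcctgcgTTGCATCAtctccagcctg
The match in *Asns* begins 23 bases before the start and reads on the gene's own strand. *Slc7a11* holds a match on each strand, at 66 and 47 bases before the start. The match in *Slc1a4* is on the opposite strand and spans the start itself. Of these 3 genes, *Asns* and *Slc7a11* were called higher and *Slc1a4* lower in both comparisons of induced with juvenile libraries. A match is a description of the letters and says nothing of binding in these cells.

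**Figure D3:**
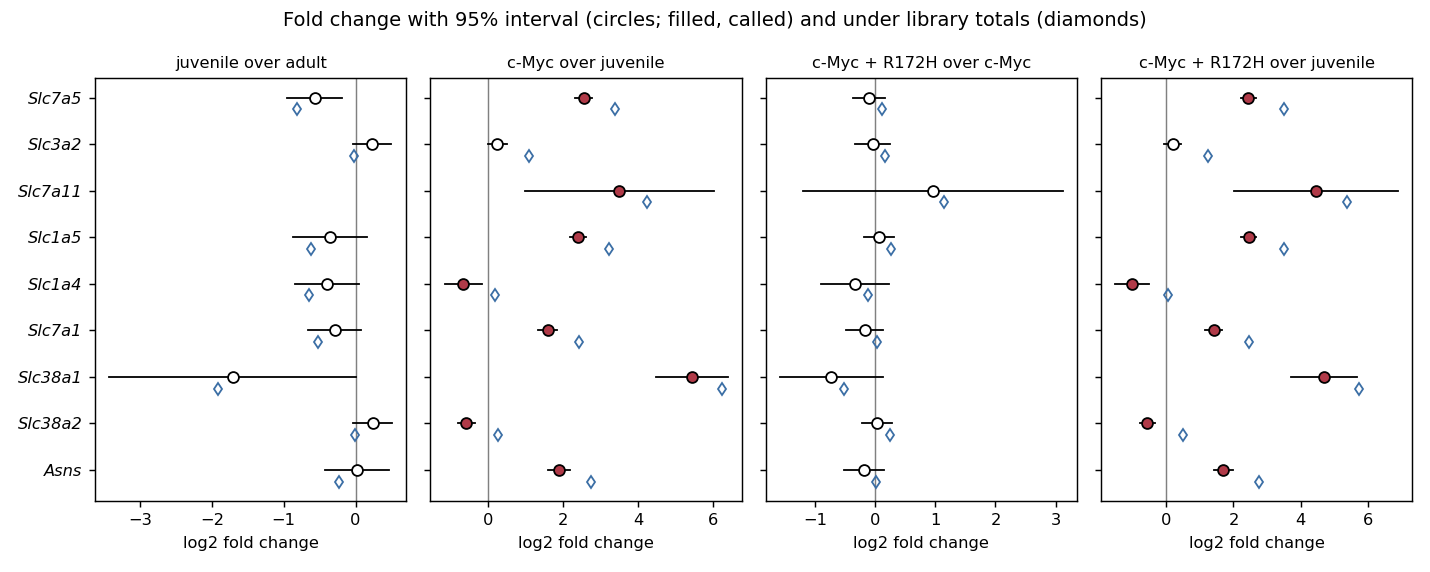
Log2 fold changes of the 9 genes in 4 comparisons (panels, each with its own range), with TMM scaling and 95% intervals (circles with lines, filled where called) and with library totals (diamonds). In both comparisons with juvenile libraries 6 circles are filled above 0 and those of *Slc1a4* and *Slc38a2* below 0, with diamonds on the other side of 0; no circle is filled in the comparisons of age and of *R172H*, and *Slc7a11* was not tested for age.

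The order of levels also changed. Per kb of exon in juvenile osteoblasts, *Slc38a2* (32.0 ± 3.58 CPM per kb, SD, n = 4) was followed by *Slc3a2* (22.9 ± 2.90) and *Slc7a5* (9.69 ± 0.91), whose ranges did not overlap. *Asns* (6.21 ± 0.78), *Slc1a5* (4.81 ± 0.22), *Slc7a1* (4.80 ± 0.68) and *Slc1a4* (3.58 ± 0.70) came next. The ranges of *Asns* and *Slc1a5* did not overlap, while *Slc1a5* overlapped *Slc7a1*, and *Slc7a1* overlapped *Slc1a4*. *Slc38a1* (0.0419) and *Slc7a11* (0.00328) were last and overlapped each other. In *c-Myc* libraries *Slc7a5* led (57.6 ± 6.24, n = 2), then *Slc3a2* (27.5 ± 2.69), *Slc1a5* (25.6 ± 1.59), *Asns* (23.3 ± 1.62) and *Slc38a2* (21.7 ± 0.0127). Of the neighbours in this order, *Slc3a2* and *Slc1a5* overlapped, and the others did not. In *c-Myc* + *R172H* libraries *Slc7a5* led again (52.5 ± 2.62), and *Slc1a5* (26.2 ± 0.485) and *Slc3a2* (26.1 ± 0.175) overlapped, as did *Slc38a2* (21.7) and *Asns* (20.0).

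None of these genes was called between the induced groups by edgeR. In *c-Myc* + *R172H* over *c-Myc*, 0 of the 9 genes were called higher or lower by edgeR, 0 had an unadjusted p under 0.05, and DESeq2 called 0, where 0.00794% of all genes tested were called higher and 0.461% lower. The median log2 fold change of the 9 genes was -0.10, against -0.003 for all genes. *Slc7a5* had -0.10 (95% interval -0.37 to 0.16), *Slc1a5* 0.06 (-0.19 to 0.30), *Slc38a2* 0.03 (-0.23 to 0.28) and *Asns* -0.19 (-0.52 to 0.14). The intervals of *Slc38a1* (-1.59 to 0.12) and *Slc7a11* (-1.20 to 3.12) were wide. *Slc38a1*, at 35.2 and 34.6 CPM against 24.4 and 16.8 CPM, did not overlap between the groups, and its change of -0.73 was called in a fit of these 2 groups alone (-0.72, adjusted p = 0.00205) and with a replicate block (-0.75, adjusted p = 0.0304). *Slc7a1*, *Slc1a4* and *Asns* were also lower in both *c-Myc* + *R172H* libraries than in both *c-Myc* libraries, and *Slc7a11* was higher, without a call. With 2 libraries a group, such separation is often seen by chance, and its share over all genes was not counted. So it shows no pattern of these genes.

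Against the juvenile libraries the *c-Myc* + *R172H* group gave the same split of 6 higher, 2 lower and 1 not called. The libraries of the juvenile group are shared with the comparison of *c-Myc* alone, and 30.4% of all genes tested were called higher and 26.3% lower. The log2 fold changes were 2.44 ± 0.10 for *Slc7a5* (adjusted p = 4.64e-09), 2.45 ± 0.10 for *Slc1a5* (adjusted p = 3.63e-09), 1.41 ± 0.12 for *Slc7a1* (adjusted p = 8.45e-07) and 1.70 ± 0.13 for *Asns* (adjusted p = 4e-07). *Slc38a1* had a fitted value of 4.69 ± 0.45 (adjusted p = 2.19e-06) and a counting ratio of 25.7 (17.7 to 38.5). *Slc3a2* had 0.20 (-0.06 to 0.45, adjusted p = 0.168), and without juvenile replicate 4 it had 0.28 with adjusted p = 0.0253. The median of the 9 genes was 1.70, against 0.08 for all genes, and the calls over all genes were 3832 higher and 3311 lower, or 7667 higher and 1169 lower under library totals.

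Age differences in these genes did not pass the threshold. In juvenile over adult, 0 of the 8 genes tested were called by edgeR or by DESeq2, where 1.89% of the 11345 genes tested were called higher and 3.23% lower, and *Slc7a11* had too few counts to be tested. Only *Slc7a5* had an unadjusted p under 0.05, with a log2 fold change of -0.57 ± 0.18 (95% interval -0.95 to -0.18, adjusted p = 0.0794). Adult replicate 2 was at the juvenile level of *Slc7a5* (33.4 CPM), and its other 3 libraries were above every juvenile one. Without adult replicate 2 *Slc7a5* was lower in juvenile libraries by edgeR (-0.73, adjusted p = 0.00578) and so was *Slc1a5* (-0.59, adjusted p = 0.0497), and *Slc7a5* was called also under library totals, without a filter on low counts and in a fit of all 12 libraries.

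The same adult library was the lowest or next to lowest of its group for *Slc1a5*, *Slc38a2*, *Slc7a1* and *Slc1a4*. The remaining intervals for juvenile over adult were 0.23 (-0.04 to 0.50) for *Slc3a2*, 0.24 (-0.03 to 0.51) for *Slc38a2*, -0.29 (-0.66 to 0.08) for *Slc7a1*, -0.39 (-0.84 to 0.05) for *Slc1a4* and 0.02 (-0.42 to 0.46) for *Asns*. *Slc38a1*, with 29 counts in all juvenile and 91 in all adult libraries, had -1.71 ± 0.81 (adjusted p = 0.255). The median of the 8 genes was -0.32, against 0.001 for all genes, and calls over all genes were 214 higher and 367 lower, or 53 higher and 792 lower under library totals.

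Other genes of the pathway were taken from 4 lists, also written with earlier results of these data known. Of 56 other amino acid carriers, 32 were tested, and in *c-Myc* over juvenile 7 were called higher and 10 lower, shares near the 28.4% and 25% over all genes, and the median log2 fold change was -0.09. *Slc16a10* (TAT1, aromatic amino acids) rose by 2.79 ± 0.32, from 3.72 to 27.0 CPM (adjusted p = 1.12e-05), *Slc6a15* (B0AT2, branched-chain amino acids and proline) by 2.41 ± 0.16 and *Slc25a22* (a mitochondrial glutamate carrier) by 1.38 ± 0.22. *Slc7a8* fell from 54.8 to 2.91 CPM (-4.26 ± 0.21 on the log2 scale, adjusted p = 1.87e-08). *Slc38a3* (SNAT3, a glutamine carrier that can run in either direction) fell by 4.16 and *Slc43a2* (LAT4, a uniporter for large neutral amino acids) by 2.93 on the log2 scale. In *c-Myc* + *R172H* over juvenile the list had 7 higher and 12 lower of 32 tested (30.4% and 26.3% over all genes). The median of the list was -0.11, and *Slc7a8* was at 1.09 CPM (-5.63 ± 0.23). Under library totals 16 of these carriers were called higher in each of both comparisons, where 6803 and 7667 of all 12588 genes tested were called higher.

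Enzymes that use or make glutamine and glutamate had the highest median of the 4 lists in both comparisons of induced with juvenile libraries. Of 33 tested, 20 were called higher and 6 lower in *c-Myc* over juvenile (28.4% and 25% over all genes). The median was 1.19. In *c-Myc* + *R172H* over juvenile, 21 were called higher and 7 lower (30.4% and 26.3% over all genes), with a median of 1.21. Under library totals these counts were 25 and 2, and 28 and 2. Over all 12588 genes tested they were 6803 and 1116, and 7667 and 1169. *Gls2*, which turns glutamine into glutamate, had 18 counts in all juvenile libraries and 730 in the *c-Myc* libraries, a counting ratio of 36.8 (23.1 to 62.5), but its exons overlap those of *Spryd4* on the opposite strand and the strand setting of the counting is not stated in the sources used here. *Glul*, glutamine synthetase, which works in the opposite direction, rose as well (from 16 to 43.6 CPM, 1.41 ± 0.19, adjusted p = 5.95e-05), and its exons overlap *Teddm2*. *Glud1*, glutamate dehydrogenase, rose by 0.47 ± 0.12 (adjusted p = 0.00567), a call that was lost without *c-Myc* replicate 1 (adjusted p = 0.0652).

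*Ppat*, the first enzyme of purine synthesis and a user of glutamine, rose from 7.76 to 65.4 CPM (3.02 ± 0.24) but shares exon sequence with *Paics*, and *Prodh*, which breaks down proline, rose by 4.54 ± 0.59. On the other side were *Gfpt2*, which starts hexosamine synthesis with glutamine (-2.56 ± 0.43), *Pycr1*, which makes proline in mitochondria (from 79.3 to 20.3 CPM, -1.99 ± 0.16), and *Oplah*, an enzyme of the glutathione cycle (-1.21 ± 0.45, adjusted p = 0.0378), whose call was lost without juvenile replicate 3 (adjusted p = 0.0673) or without any 1 library of the induced groups (0.0633 to 0.178). *Slc43a2*, *Aldh1l2*, *Seh1l* and *Oplah* also share exon positions with another annotated gene. So genes that break down proline and that make it moved in opposite directions. In juvenile over adult, *Gfpt2* (-2.06 ± 0.35, adjusted p = 0.00982) and *Gfpt1* (-0.46 ± 0.13, adjusted p = 0.042) were the only 2 enzymes called by edgeR, both lower in juvenile libraries, and *Slc38a4* (SNAT4) was the only carrier called by edgeR, higher in juvenile libraries (1.01 ± 0.25, adjusted p = 0.0286). The call of *Gfpt1* was lost without any 1 of the 8 libraries but adult replicate 2 (adjusted p = 0.0521 to 0.140), and that of *Slc38a4* without juvenile replicate 1 or 2 or adult replicate 3 or 4 (0.0656 to 0.0876). For age, 30 enzymes and 32 carriers were tested, and edgeR called 1.89% of all genes higher and 3.23% lower. DESeq2 called 3 enzymes lower and 3 carriers higher, where it called 616 lower and 319 higher over all genes. With all 12 libraries in the fit, edgeR called 4 carriers higher, and 460 higher over all genes.

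The list of GCN2-ATF4 response genes split. Of 30 tested, 16 were called higher and 7 lower in *c-Myc* over juvenile (28.4% and 25% over all genes). The median was 0.57. In *c-Myc* + *R172H* over juvenile, 16 were called higher and 8 lower (30.4% and 26.3% over all genes), with a median of 0.42. Under library totals the counts were 24 and 3, and 24 and 4 (6803 and 1116, and 7667 and 1169 over all 12588 genes tested). With a log2 fold change of at least 1 required they were 8 and 4, and 8 and 5 (2320 and 2010, and 2466 and 2258 over all genes). The medians were the same with *Cth* and *Cbs* set at their lower bounds. *Atf4* itself was at 141 ± 8.76 CPM in juvenile and 119 ± 7.92 CPM in *c-Myc* libraries (-0.26 ± 0.09, adjusted p = 0.0337), a call lost without any 1 library of the induced groups (adjusted p = 0.0626 to 0.286), and its change was 0.57 under library totals. *Eif2ak4*, which encodes GCN2, rose from 9.23 to 19.2 CPM (1.04 ± 0.18, adjusted p = 0.000372). ATF4 is controlled mostly through its translation, which these libraries do not measure.

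*Cth* and *Cbs*, which make cysteine from homocysteine, had 0 counts in all juvenile libraries and 110 and 72 counts in the *c-Myc* libraries, at least 6.48-fold and 4.24-fold higher against a floor of 3 counts per library. *Trib3*, a pseudokinase induced by ATF4, had 3 counts in all juvenile libraries and 63 in the *c-Myc* libraries, a counting ratio of 19.1 (6.23 to 94.9). The genes of this list with the strongest falls were *Vldlr* (a lipoprotein receptor, -2.09 ± 0.18), *Aldh1l2* (a mitochondrial folate enzyme, from 161 to 43.6 CPM, -1.90 ± 0.11) and *Nupr1* (a stress-induced nuclear protein, -1.86 ± 0.16). *Asns*, *Cth*, *Cbs* and *Trib3* thus rose while *Vldlr*, *Aldh1l2* and *Nupr1* fell in the same libraries.

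Genes by which mTORC1 senses amino acids formed the last list. Of 35 tested, 8 were called higher and 5 lower in *c-Myc* over juvenile (28.4% and 25% over all genes). The median was 0.20. In *c-Myc* + *R172H* over juvenile, 10 were called higher and 6 lower (30.4% and 26.3% over all genes), with a median of 0.21. Under library totals the counts were 25 and 1, and 24 and 1 (6803 and 1116, and 7667 and 1169 over all 12588 genes tested). *Rragb*, a Rag GTPase, rose by 3.31 ± 0.68 from a level of 0.273 CPM, *Sesn1*, a leucine sensor family member and p53 target, by 1.36 ± 0.14, and *Seh1l*, of the GATOR2 complex, by 1.27 ± 0.14. *Castor2*, of the arginine sensor family, fell from 20.8 to 4.39 CPM (-2.27 ± 0.29), and *Lamtor4* (-0.78 ± 0.30) and *Sesn3* (-0.72 ± 0.14) were also called lower. The changes of *Lamtor4* and *Sesn3* were 0.04 and 0.12 under library totals, and the call of *Lamtor4* (adjusted p = 0.0444) was lost without juvenile replicate 1, juvenile replicate 2 or any 1 induced library (0.0724 to 0.275). In *c-Myc* + *R172H* over *c-Myc*, 0 genes of any of the 4 lists were called by edgeR, with 2, 2, 4 and 0 genes at an unadjusted p under 0.05 and 1, 1, 1 and 0 called lower by DESeq2, in the order of the lists above. In an edgeR fit of these 2 groups alone, 2 carriers, 2 enzymes and 7 genes of the GCN2-ATF4 list were called lower and 1 enzyme higher, and with a replicate block 2, 1 and 6 were called lower. Over all genes, that fit called 440 of 12170 lower and 189 higher, the block 296 of 12588 lower and 30 higher, and DESeq2 195 lower and 6 higher.

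**Figure D4:**
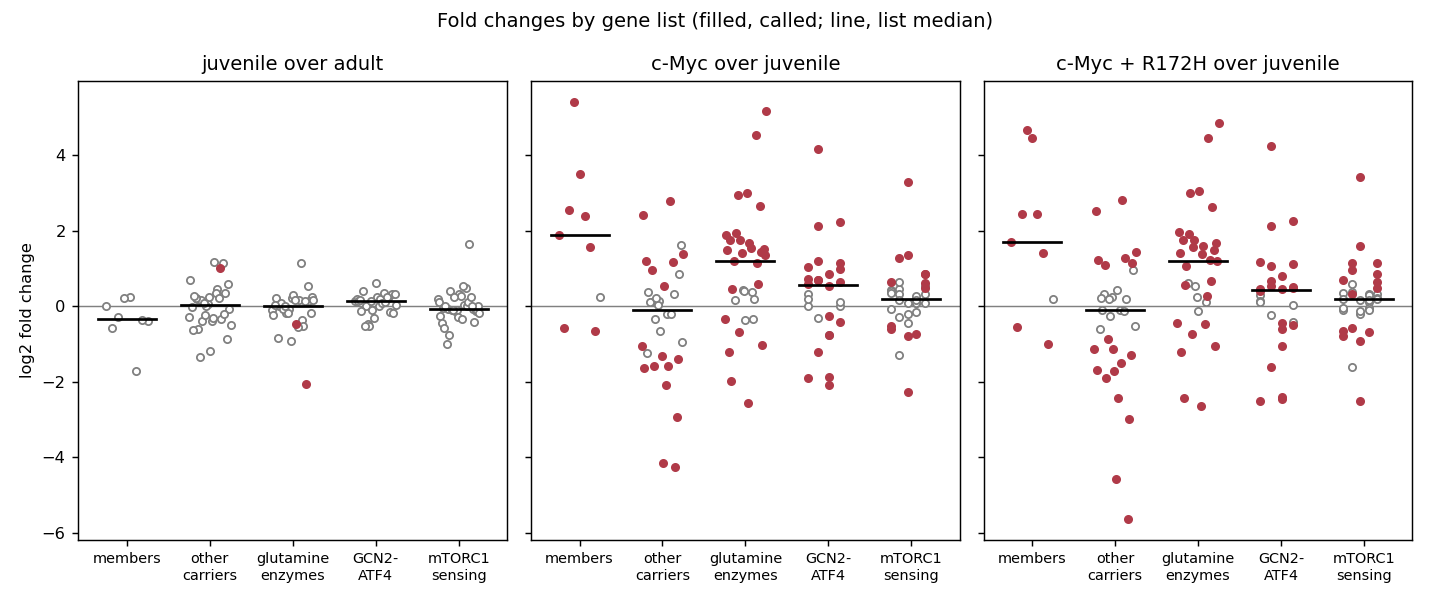
Log2 fold changes of the 9 genes and of the 4 pathway lists (points, filled where called, *Cth* and *Cbs* left out because juvenile libraries had 0 counts) in 3 comparisons, with each list's median as a line. For *c-Myc* over juvenile the medians are 1.89 for the 9 genes, -0.09 for other carriers, 1.19 for glutamine enzymes, 0.57 for the GCN2-ATF4 list and 0.20 for mTORC1 sensing; in juvenile over adult 3 points are filled.

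Genes whose profile over the 12 libraries was closest were found among 13004 genes by the root mean square difference of centred log2(CPM + 0.5). For *Slc7a5* they were *Lrpprc* (0.186), *Tufm* (0.190) and *Mrto4* (0.212), and *Slc1a5* was at rank 6 (0.231). For *Slc1a5* they were *Tpx2* (0.192), *Nop14* (0.208) and *Nsun2* (0.215), and for *Asns* they were *Gfm1* (0.152), *Nob1* (0.168) and *Pes1* (0.201). *Slc3a2*, in contrast, ranked 4570 by its likeness to *Slc7a5* (0.974), and its closest genes were *Tsnax*, *Nab1* and *Smarcad1* (0.107 to 0.114). The 12 points share group differences, so this distance is a description of likeness and nothing more.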

How the data were processed

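The authors demultiplexed reads with bcl2fastq 2.20, used cutadapt 4.6 for trimming and STAR 2.7.11a for alignment to mm10, counted reads per gene with HTSeq 2.0.5, and deposited raw counts of 32288 genes for 12 libraries. Whether counting used strand is not given in the sources used here. The counts were tested with edgeR 4.0.16 (R 4.3.3), with TMM factors, filterByExpr, robust quasi-likelihood fits and Benjamini-Hochberg adjustment at 0.05 over all genes tested. Juvenile and adult libraries were fitted together, and the juvenile libraries entered a second fit with both induced groups. SE is the size of the log2 fold change over the square root of F. DESeq2 1.42.0, library totals, other filters and samples, and a replicate block were alternatives. The scripts were tested on simulated counts. Exon lengths came from GENCODE vM21 and promoter windows from RefSeq. The 9 genes and the lists were chosen with earlier results of these data known. Pathway genes named were up to 3 called in each direction of each list and comparison, those with the largest change among genes with no overlap between groups and a mean of 10 counts or more, plus *Glul*, *Glud1*, *Atf4* and *Eif2ak4* (a further gene of this rule is not reported here). Counting intervals are 95% exact intervals and cover counting error only, as does the floor of 3 counts.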

Additional observations from a re-analysis of the deposited data

Results flagged for a closer look

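*Slc7a11* in juvenile replicate 1 was at 0.183 CPM, from 2 counts, and the other 3 juvenile libraries had 0 counts. With 3 values at 0 any count in the fourth library stands apart from its group, and 2 counts are below the floor of 3 counts, so the values show no difference beyond counting noise. Of the 18 sets of 4 libraries looked at in this way, chance alone would flag about 1 in 20.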

How the results depend on the processing

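The number of the 9 genes called higher stayed at 0 for age and for *c-Myc* + *R172H* over *c-Myc* under every alternative run, and within 1.5 times of 6 in both comparisons with juvenile libraries. The number called lower moved. For juvenile over adult it was 0, and 1 under library totals, with no filter of low counts, and in the fit of all 12 libraries, and it ranged from 0 to 2 when 1 library was left out, with 2 without adult replicate 2. For *c-Myc* over juvenile it was 2, and 0 under library totals and with a log2 fold change of at least 1 required, 1 without a filter on low counts, 1 with a replicate block, and 1 to 2 when 1 library was left out. For *c-Myc* + *R172H* over juvenile it was 2, and 0 under library totals and 1 with the fold requirement. For *c-Myc* + *R172H* over *c-Myc* it was 0, and 1 in a fit of the 2 groups alone and 1 with a replicate block.

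Library totals turned the sign of several log2 fold changes. In *c-Myc* over juvenile these became 0.18 for *Slc1a4*, 0.26 for *Slc38a2*, 0.57 for *Atf4*, 0.15 for *Gfpt1*, 0.0358 for *Lamtor4* and 0.12 for *Sesn3*, and in *c-Myc* + *R172H* over juvenile 0.0585 for *Slc1a4*, 0.50 for *Slc38a2*, 0.61 for *Atf4*, 0.30 for *Gfpt1*, 0.10 for *Lamtor4*, 0.36 for *Sesn3* and 0.25 for *Sec13*. In *c-Myc* + *R172H* over *c-Myc* they became 0.10 for *Slc7a5*, 0.16 for *Slc3a2*, 0.0348 for *Slc7a1* and 0.0183 for *Asns*, and in juvenile over adult -0.015 for *Slc3a2*, -0.012 for *Slc38a2* and -0.23 for *Asns*. Values near 0 also turned when 1 library was left out. For juvenile over adult *Asns* ranged from -0.10 to 0.18, below 0 without juvenile replicate 4 (-0.072), adult replicate 2 (-0.043) or adult replicate 4. For *c-Myc* + *R172H* over *c-Myc*, *Slc3a2* ranged from -0.17 to 0.0287 (above 0 without *c-Myc* replicate 1), *Slc1a5* from -0.0281 to 0.0944 (below 0 without *c-Myc* replicate 2) and *Slc38a2* from -0.0293 to 0.0307 (below 0 without *c-Myc* replicate 1 or *c-Myc* + *R172H* replicate 2), and *Slc38a2* was -0.00058 with all 12 libraries in the fit. Where leaving out a library left 1 in an induced group, that library was assumed to vary like the other groups. The cause was not tested.

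Libraries with the same replicate number did not deviate together in most comparisons (correlations from -0.066 to 0.16), and no label ties the numbers, so they were not taken as pairs. Between the induced groups, where the correlation was 0.16, the number went with the level of *Xist*, so the block there also holds that difference. The replicate block changed the calls of *Slc3a2*, *Slc1a4*, *Slc7a11* and *Slc38a1* given in the report, and no other call of the 9 genes. Over all genes, the calls for age (214 higher and 367 lower) became 319 and 616 with DESeq2, 399 and 578 with no filter, 460 and 633 with all 12 libraries, 43 and 222 with the fold requirement, and 86 to 344 and 199 to 541 when 1 library was left out. Those for *c-Myc* + *R172H* over *c-Myc* (1 and 58) became 6 and 195 with DESeq2, 14 and 208 with no filter, 30 and 296 with the replicate block, 189 and 440 in the fit of the 2 groups, 0 and 22 with all 12 libraries, 0 and 32 with the fold requirement, 1 and 11 under library totals, and 0 to 3 and 7 to 84 when 1 library was left out. The fold requirement left 2320 and 2010 for *c-Myc* over juvenile and 2466 and 2258 for *c-Myc* + *R172H* over juvenile. Depth limits *Slc7a11*, which had 30 counts or fewer in every library.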
